A study of Gossypium arboreum with 12 samples.

Results

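The 131 probe sets described here were moderately higher in ovules of the fuzzy-lintless line of diploid cotton (*Gossypium arboreum*, *Fl*, mutant ANOI 1960) than in ovules of the fuzzy-linted wild-type line (*FL*) at 10 dpa (days post anthesis), and differed little between the lines at 0 dpa. They were chosen from 21791 probe sets by the measured values themselves: the mean of 3 *Fl* arrays minus the mean of 3 *FL* arrays had to lie from 0.8 to under 1.585 on the log2 scale at 10 dpa, and to be under 0.4 in size at 0 dpa. The upper edge is a fold of 3 between the group means. Field-grown plants of each line gave whole ovules on the day of flowering, when fibre cells initiate (0 dpa), and during their elongation (10 dpa), with 3 biological replicates and 1 array per replicate in each of the 4 groups. According to the study the lines were near isogenic but not perfectly so, being derived from a first backcross, so genetic background and the lintless trait cannot be told apart. Whole ovules were used, so a smaller share of cells of a type and less RNA per cell cannot be told apart either.

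Cotton lint fibres are single cells that grow out of the outer layer of the ovule around anthesis and then elongate for weeks. A linted ovule at 10 dpa therefore holds the seed coat, the inner tissues of the young seed and a dense coat of elongating fibres, whereas by the electron microscopy of the study elongating fibres were seen only in *FL*. Each probe set reads a transcript through several short probes, and its level is given here relative to its median over the 12 arrays, since the deposited values are centred in that way and absolute brightness cannot be had. Of the 131 probe sets, 1 has a gene name in the tables of the study and 130 have none in the files used here. These 130 are described by their patterns, and only the 4 with the largest changes between the stages are given by identifier.

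A few facts of the samples bear on all values below. To read the fibre side of the samples, transcripts that the study's tables name expansin-like B1, peroxidase 2, UDP-galactose 4-epimerase 1, beta-6 tubulin and profilin 5, all lower in *Fl*, were taken, and 8 probe sets measured them. Their group means lay from 1.86 to 6.07 in *FL* at 10 dpa, from -0.25 to 0.25 in *Fl* at 10 dpa and from -0.42 to 0.06 in both lines at 0 dpa, and the tables were drawn up from these same arrays. They do not stand for all cell wall transcripts: of the 14 probe sets that carry a cell wall name there, 6 were called higher and 7 lower in *Fl* at 10 dpa (adjusted p of 0.01 or less, Benjamini-Hochberg in limma), against 9.15% and 9.70% of all probe sets. The study's tables list transcripts that differ between the lines, so most of the 14 being called follows from that choice. The part of the fibre transcripts in the results below was not tested. Replicate 1 of *FL* at 10 dpa has 0 dpa in 1 field of its record and 10 dpa in its title, and its correlation over all probe sets was 0.914 and 0.915 with the *FL* arrays labelled 10 dpa throughout and -0.565 to -0.555 with those of 0 dpa. Bacterial hybridization controls differed between *Fl* and *FL* by -0.65 on the log2 scale at 0 dpa and by -0.15 at 10 dpa. With every array centred on those controls the rule found 27 probe sets, of which 10 were among the 131.

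At 10 dpa the *Fl* minus *FL* difference of the 131 ranged from 0.80 to 1.55 with a median of 0.95 on the log2 scale, or from 1.74-fold to 2.93-fold. It reached 2-fold in 54 and was smaller in 77. At 0 dpa the difference ranged from -0.39 to 0.39 with a median of 0.08, and was above 0 in 86 and below 0 in 45. A difference at 0 dpa, in either direction, was called in 13 of the 131 (adjusted p of 0.01 or less, Benjamini-Hochberg in limma), against 10.2% of all probe sets, and the rule asks only that it be small. These values were used to choose the members and carry no test. All 3 *Fl* arrays lay above all 3 *FL* arrays of 10 dpa for each of the 131, which over all probe sets held for 24.0%, and nothing is read from this since the rule used that contrast. Just inside the lower edge stood differences of 0.802 and 0.803 and just outside it 0.7994 and 0.7991. Inside the upper edge the closest were 1.55 and 1.51, and outside it 1.59 and 1.62. At 0 dpa the largest sizes kept were 0.394 and 0.390, and the smallest left out were 0.4005 and 0.4013. The lower edge runs through a dense range of values, so small changes of processing move probe sets across it. The opposite set, lower in *Fl* by the same limits, had 326 probe sets.

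The arrays show that the *FL* ovules of 10 dpa stand apart for most of these transcripts. They do so beyond these transcripts as well. Over all probe sets the SD was 0.49 to 0.50 on the *FL* arrays of 10 dpa and 0.35 to 0.36 on the others. Over the 131, the median level was 0.229, -0.001 and -0.021 on the *FL* arrays of 0 dpa and 0.12, 0.08 and 0.17 on the *Fl* arrays of 0 dpa. At 10 dpa it was -0.90, -0.94 and -0.78 in *FL* and 0.02, 0.15 and 0.11 in *Fl*. The median of *Fl* at 10 dpa lay close to those of 0 dpa, although single members moved in both directions in *Fl*, and the median of *FL* at 10 dpa lay below them. Of the 131, 109 had all 3 *FL* arrays of 10 dpa below all 9 other arrays, against 13.7% of all probe sets. Another count, of those with all 3 *Fl* arrays of 10 dpa above all 9 others, was 40, against 4.42% of all probe sets. Both counts draw on the contrast of the rule and are a description. The spread between replicates was ordinary, with a median SD within groups of 0.112 among the 131 and 0.123 among all probe sets.

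**Figure D1:**
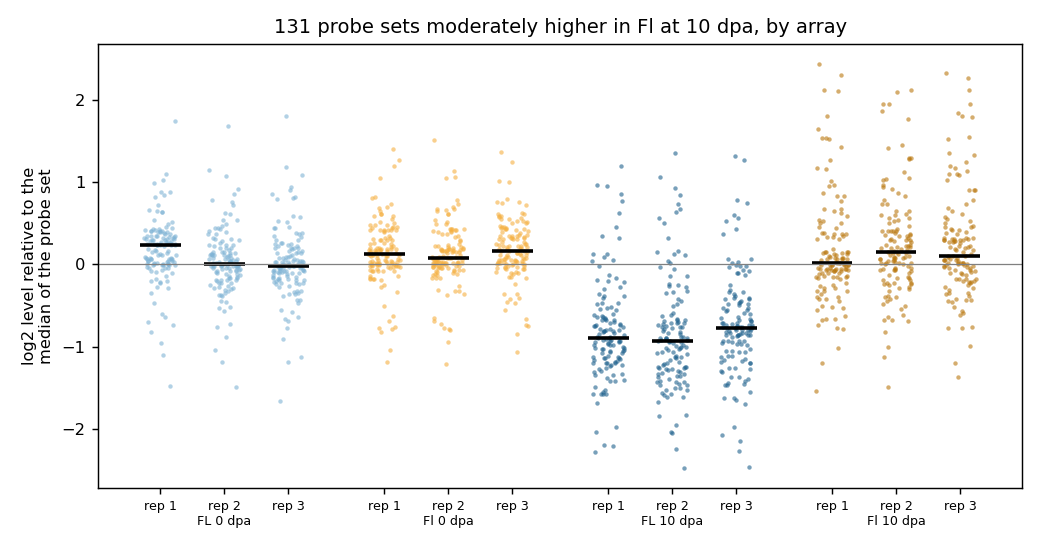
Level of each of the 131 probe sets (points) and their median (black bar) on the 12 arrays, as log2 relative to the median of the probe set. The *FL* arrays of 10 dpa have medians of -0.90, -0.94 and -0.78, and the medians of the other 9 arrays lie between -0.02 and 0.23.

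Which line moved between the stages is not fixed by the rule, although the rule does fix that the change in *Fl* exceeds that in *FL*. From 0 to 10 dpa 105 of the 131 fell in *FL* (adjusted p of 0.01 or less, Benjamini-Hochberg in limma over all probe sets), where 23.9% of all probe sets fell. Another 10 rose in *FL*, against 17.5% of all. In *Fl* 34 rose, against 13.9% of all, and 38 fell, against 18.0%. The change was larger in size in *FL* for 103 and in *Fl* for 28. In *FL* it ranged from -4.14 to 2.74 with a median of -0.89, and in *Fl* from -2.89 to 3.26 with a median of 0.02. The medians over all probe sets were -0.07 and -0.01. In the opposite set of 326 the medians were 1.07 in *FL* and 0.02 in *Fl*, so *FL* was the line that moved more there too. In *FL* 58 fell by 2-fold or more, and in *Fl* 18 rose by as much. In 66 the *Fl* change was under 0.4 in size. These counts by size have no share over all probe sets beside them. Over all probe sets the quartiles of the change were -0.32 and 0.18 in *FL* and -0.22 and 0.18 in *Fl*. A small change in *Fl* is therefore not particular to the members. Sorting by these calls describes the members and is no independent evidence about them.

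**Figure D2:**
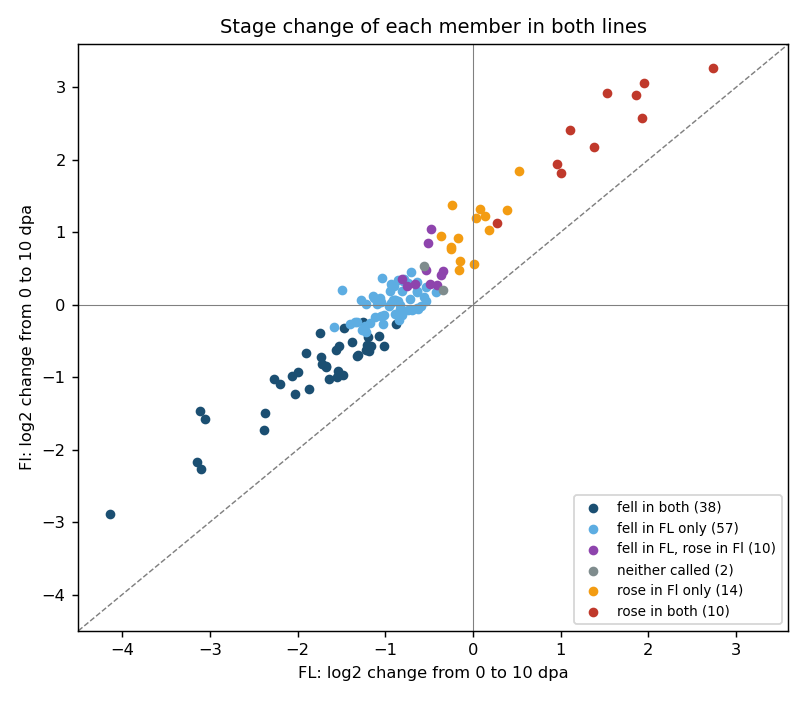
Log2 change from 0 to 10 dpa in *FL* (horizontal) and in *Fl* (vertical) of each of the 131 probe sets, coloured by the calls in each line, with the dashed line marking equal change. All points lie above that line because of the rule. The largest group, 57 probe sets, fell in *FL* and was not called in *Fl*.

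In the largest group, 57 transcripts fell in *FL* and were not called in *Fl*. Their medians on the 3 *FL* arrays were 0.23, -0.02 and -0.05 at 0 dpa and -0.882, -1.001 and -0.770 at 10 dpa. On the 3 *Fl* arrays they were 0.10, 0.05 and 0.14 at 0 dpa and 0.02, 0.15 and 0.12 at 10 dpa. The *FL* changes of these 57 ran from -1.58 to -0.42 and the *Fl* changes from -0.38 to 0.45. For these transcripts the linted ovules of 10 dpa were the low group, and the other groups lay close together.

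Another 38 fell in both lines, and by more in *FL*. Their median change was -1.66 in *FL*, with a range from -4.14 to -0.88, and -0.83 in *Fl*, with a range from -2.89 to -0.24. The median level of these 38 on the *FL* arrays of 10 dpa was -1.34, -1.26 and -1.28, and on the *Fl* arrays of 10 dpa -0.38, -0.27 and -0.33. A further 10 fell in *FL*, by a median of -0.50, and rose in *Fl*, by a median of 0.38.

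For 14 a rise was called in *Fl* and no change was called in *FL*. Their median change was 0.99 in *Fl*, from 0.48 to 1.85, and -0.07 in *FL*, from -0.36 to 0.53. Their median level on the *Fl* arrays of 10 dpa was 0.83, 0.91 and 1.10, and on the *FL* arrays of 10 dpa -0.18, -0.04 and -0.05. In 10 more both lines rose, by a median of 2.50 in *Fl* and 1.45 in *FL*, so that their medians at 10 dpa were 1.79 and 0.70. The remaining 2 were called in neither line. None fell in *Fl* without falling in *FL*, and none rose in *FL* without rising in *Fl*. Both follow largely from the rule, by which the change in *Fl* exceeds that in *FL* in every member.

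The stage change averaged over both lines uses the sum of the lines at each stage, and it was tested for each probe set. That contrast is orthogonal to the line differences that chose the members. The counts of members are still not independent of the rule, since the average includes the *FL* level at 10 dpa. Over all probe sets the *FL* arrays of 10 dpa spread more widely (SD 0.49 to 0.50) than the others (0.35 to 0.36). The shares that follow for this average are a description. Averaged in this way, 83 of the 131 (63.4%) were lower at 10 dpa than at 0 dpa, where 26.1% of all probe sets were, and 21 (16.0%) were higher, where 19.2% of all were (adjusted p of 0.01 or less, Benjamini-Hochberg in limma). Of the 83, 38 fell in both lines, 42 fell in *FL* and were not called in *Fl*, and 3 fell in *FL* and rose in *Fl*, so an averaged fall does not mean a fall in each line. The other 27 were not called. The median averaged change was -0.44 in the members and -0.04 over all probe sets. With a fold of 3 asked as well, 10 were lower, against 0.771% of all probe sets, and 7 higher, against 2.23%. In the opposite set of 326, 224 were higher and 42 lower by the same call, and among the 16 probe sets that were 3-fold or more higher in *Fl* at 10 dpa, with the same limit at 0 dpa, 10 were higher and 2 lower. These sets share the same 12 arrays, and the differences between their counts were not tested. Under the unpaired test of the study's methods, which pools both lines into the spread of a stage, 32 of the 131 were lower and 9 higher. The shares of all probe sets under that test are not given here, so these 2 counts have no background beside them.

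**Figure D3:**
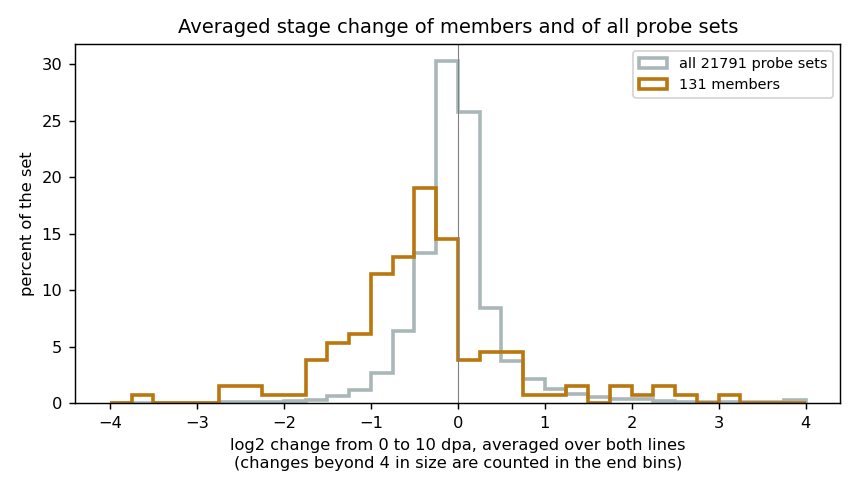
Percent of the 131 members (brown) and of all 21791 probe sets (grey) by their log2 change from 0 to 10 dpa averaged over both lines, as a histogram. The members have a median of -0.44, all probe sets -0.04.

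The single named member, Ghi.6472.1.A1_s_at, is matched in most of the tables that hold it to AT2G45180.1, a member of the superfamily of bifunctional inhibitors, lipid-transfer proteins and seed storage albumins, and in the table on hormones to another locus, AT4G12470.1 (azelaic acid induced 1). It is thus among the transcripts that the study lists as differing between the lines. These are a superfamily of small, cysteine-rich and mostly secreted proteins in *Arabidopsis* and other plants. Its levels were -1.10, -1.19 and -1.19 in *FL* and -0.79, -0.77 and -0.75 in *Fl* at 0 dpa. Its 10 dpa arrays gave 0.77, 0.84 and 0.75 in *FL* and 2.43, 2.12 and 2.32 in *Fl*. The transcript rose in both lines, and its *Fl* arrays of 10 dpa lay above all others. Averaged over both lines it was higher at 10 dpa by 2.51 (limma, standard error or SE 0.05, Benjamini-Hochberg adjusted p = 2.1e-12, 12 arrays), higher on 6 of 6 arrays of 10 dpa than on any of 0 dpa. It rose by 1.95 in *FL* and by 3.06 in *Fl*. At 10 dpa it was 2.84-fold higher in *Fl*, with a group mean of 2.29 ± 0.16 (SD, n = 3) against 0.79 ± 0.04 (SD, n = 3). At 0 dpa the difference was 0.39, near the edge of the rule. It is among the members called different between the lines at 0 dpa, so its line difference was not confined to 10 dpa.

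A second probe set matched to the same loci, Ghi.10795.1.S1_s_at, fell outside the rule at both limits. Its *Fl* minus *FL* differences were 1.63 at 10 dpa and 0.70 at 0 dpa, and both were called. Its levels were -1.22, -1.43 and -1.33 in *FL* and -0.65, -0.69 and -0.54 in *Fl* at 0 dpa. Its 10 dpa arrays gave 0.54, 0.73 and 0.74 in *FL* and 2.28, 2.36 and 2.24 in *Fl*. It had the same order of groups as the member, and its averaged rise was 2.46 (SE 0.06, 12 arrays). Both identifiers end in _s_at, the suffix of probe sets whose probes can take up signal from close relatives, and the probe sets are not independent measurements of a gene.

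Of the members without a name, the largest averaged rise was that of GhiAffx.15534.1.S1_x_at. Its levels were -1.48, -1.49 and -1.67 in *FL* and -1.19, -1.21 and -1.06 in *Fl* at 0 dpa, and 1.19, 1.06 and 1.31 in *FL* and 2.12, 2.10 and 2.11 in *Fl* at 10 dpa. It rose by 3.00 on average (limma, SE 0.06, Benjamini-Hochberg adjusted p = 6.2e-13, 12 arrays), and the groups did not overlap. Its *Fl* minus *FL* difference was 0.92 at 10 dpa. At 0 dpa the difference was 0.39, near the edge of the rule, and was called. GhiAffx.13919.1.A1_at followed, with levels of -0.83, -0.88 and -0.78 in *FL* and -1.04, -0.78 and -0.85 in *Fl* at 0 dpa, and 0.95, 1.35 and 0.78 in *FL* and 2.11, 1.95 and 1.95 in *Fl* at 10 dpa. The lines overlapped at 0 dpa and not at 10 dpa, and its averaged rise was 2.38 (limma, SE 0.09, Benjamini-Hochberg adjusted p = 2.7e-10). GhiAffx.13919.1.S1_at, alike in name but for the letter S, had an *Fl* minus *FL* difference of 0.33 at 10 dpa and was not called.

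The largest averaged fall was that of GhiAffx.7769.1.A1_s_at. Its suffix _s_at carries the limit given above. Its levels were 1.74, 1.68 and 1.80 in *FL* and 1.40, 1.51 and 1.37 in *Fl* at 0 dpa, and -2.28, -2.47 and -2.46 in *FL* and -1.54, -1.49 and -1.37 in *Fl* at 10 dpa. The *Fl* minus *FL* difference was -0.31 at 0 dpa and 0.94 at 10 dpa, both of them contrasts of the rule. Averaged over both lines the transcript fell by 3.52 (limma, SE 0.05, Benjamini-Hochberg adjusted p = 1.4e-13, 12 arrays). GraAffx.15730.1.S1_at had levels of 0.99, 1.07 and 1.09 in *FL* and 1.27, 1.13 and 1.24 in *Fl* at 0 dpa. Its 10 dpa arrays gave -2.04, -1.95 and -2.15 in *FL* and -1.02, -1.12 and -0.99 in *Fl*. It fell in both lines, by 2.68 on average (limma, SE 0.05, Benjamini-Hochberg adjusted p = 6.7e-13), and *Fl* kept the higher level on each array of 10 dpa.

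**Figure D4:**
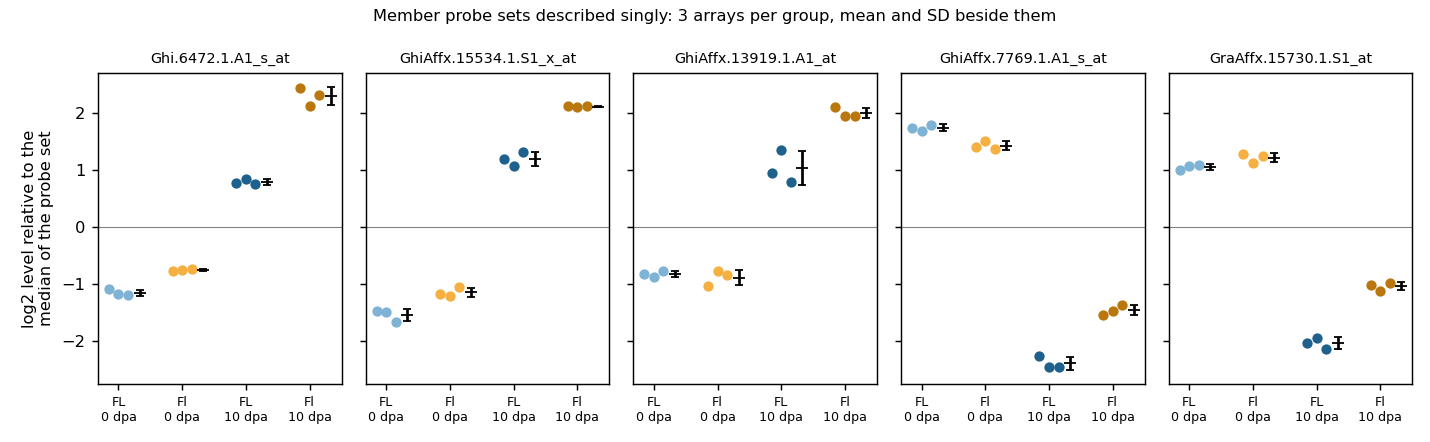
Levels of the 5 members given by identifier, as log2 relative to the median of the probe set, with 1 point per array and the mean and SD of 3 arrays in black. The 3 on the left rose and the 2 on the right fell from 0 to 10 dpa, and in each the *Fl* arrays of 10 dpa lie above the *FL* arrays of 10 dpa.

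Other probe sets of the same identifier stem, the part of the name before the running number, give a further reading of the difference at 10 dpa. Among the study's named transcripts, 8 of 9 stems with several probe sets had a single *Arabidopsis* locus. The 131 members had 129 stems, and in 2 of these a pair of probe sets were both members. The pair of 1 stem had differences of 1.55 and 1.38 at 10 dpa, falls of 0.86 and 0.81 in *FL* and changes of 0.35 and 0.19 in *Fl*. For 25 members 31 further probe sets of their stem were on the array, and of these 5 were called higher in *Fl* at 10 dpa and 3 lower (adjusted p of 0.01 or less, Benjamini-Hochberg in limma), where 9.15% of all probe sets were called higher and 9.70% lower. Probe sets inside the limits are members themselves, so these 31 are by construction those outside them.

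By the strand letter of the identifier (A or S), 10 of the 31 had the letter of the member and 21 the opposite one, which by the naming of the array stands for the opposite orientation. With 1 large stem set aside, the 5 of the same letter ran from 0.35 to 0.55 with a median of 0.45, all above 0 and 3 called higher. The 18 of the opposite letter ran from -0.14 to 1.59 with a median of 0.26, 16 above 0 and 1 called higher. With that stem included, 7 of the 10 of the same letter were above 0, with 4 called higher and 2 lower. Of the 21 of the opposite letter 16 were above 0, with 1 called higher and 1 lower. The large stem had 2 members, at 1.26 and 1.51, and 8 other probe sets from -0.74 to 0.53, of which 1 was called higher and 3 lower. Its probe sets thus differed among themselves in direction.

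**Figure D5:**
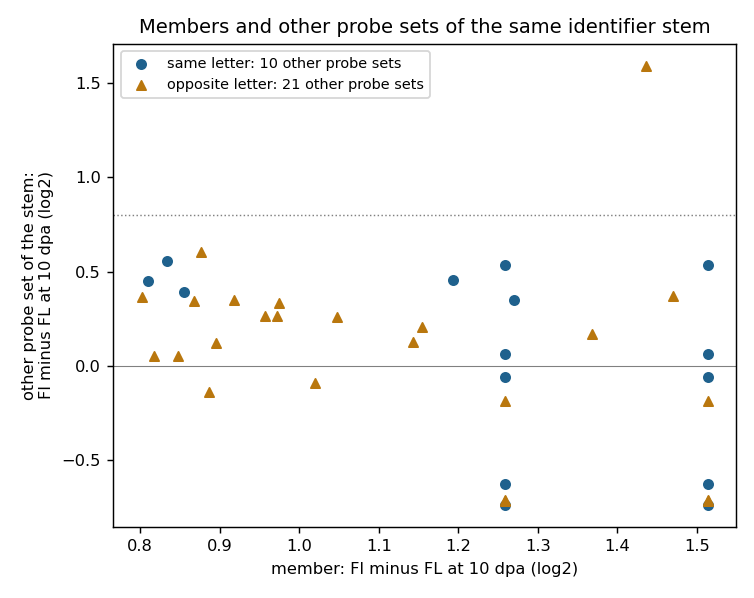
*Fl* minus *FL* difference at 10 dpa (log2) of a member (horizontal) and of another probe set of the same identifier stem (vertical), by whether the strand letters are alike. The dotted line marks 0.8, the lower limit of the rule. All but 1 of the 31 other probe sets lie under it, and the columns of points at 1.26 and 1.51 belong to 1 stem.

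The members were also compared with the whole table by the kinds of their identifiers. The suffix _s_at was carried by 52 of the 131 (39.7%), against 39.6% of all probe sets, and _x_at by 3 (2.29%), against 6.14%. By prefix 61 (46.6%) were GhiAffx, against 28.3% of all, and 48 (36.6%) were Ghi, against 43.2%. The prefixes Gra and GraAffx had 7 and 15 members (5.34% and 11.45%), against 13.5% and 14.3% of all. The prefixes stand for the cotton species from which the sequences came, *G. hirsutum* and *G. raimondii*. Only 67 probe sets of the table carried a prefix of *G. arboreum*, the species measured here, and none of them was a member. The letter S was carried by 92 of the members (70.2%), against 57.5% of all. These are counts with no test.

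Deviations of single arrays from their group, which the rule did not use, showed 1 array to stand out for the members. On replicate 1 of *FL* at 0 dpa 108 of the 131 (82.4%) lay above the mean of their group, where 57.0% of all probe sets did, with a mean deviation of 0.10 in the members and 0.02 over all. On the other 11 arrays the share of members above their group mean ran from 30.5% to 64.9%. Without this array the rule found 126 probe sets, 121 of them among the 131, and of the 131, 99 fell in *FL* and 76 were lower on average at 10 dpa. Without replicate 3 of *FL* at 10 dpa, on which the members had a mean deviation of 0.06, the rule found 163, of which 122 were among the 131.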

How the data were processed

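Total RNA of whole ovules was labelled as biotinylated cRNA and hybridized to the Affymetrix cotton GeneChip, and the authors used the RMA algorithm (background correction, quantile normalization and median polish) of GeneSpring GX 11.5. The deposited log2 values held 21889 probe sets, 98 of them AFFX controls that were left out, and each had a median of 0 over the 12 arrays within 5e-07. That centring is not given in the sources used here, and differences between groups do not depend on it. The 21791 others include 36 reporter and 4 rRNA probe sets.

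All 12 arrays were fitted in limma 3.58.1 (R 4.3.3) with a mean for each group, Benjamini-Hochberg adjustment over 21791 probe sets and a threshold of 0.01, and the fit was tested on simulated data. Arrays were grouped by title. The members, lists and tests were chosen with earlier results of these data known. Named were the members in the study's tables and, of the rest, the 2 with the largest averaged rise and the 2 with the largest fall. Of 12 keyword lists of gene functions, 10 had no named member, and the lists for lipids and for seed storage had the same 1. Alternatives were quantile normalization of the centred values, other centring, other tests, a filter and leaving out each array. Each array was 1 biological replicate, and the number of arrays limits the precision.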

Additional observations from a re-analysis of the deposited data

How the results depend on the processing

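The count of probe sets found by the rule depended on its limits and on the scaling. It was 54 with a lower limit of 1.0 at 10 dpa, 76 with a limit of 0.2 at 0 dpa and 27 with arrays centred on the hybridization controls, which differed between the lines at 0 dpa by more than the limit of 0.4. It was 159, with 104 of the 131 among them, after quantile normalization of the centred values. That step gives every array the same spread, also the wider *FL* arrays of 10 dpa, and does not repeat RMA. The count found by the rule was 119 with arrays centred on their medians. With single arrays left out it was 126 to 163, with at least 113 of the 131 among them. Of the 131, the unpaired t-test called 64 as falling in *FL*. With both lines pooled at each stage, it called 32 as lower and 9 as higher at 10 dpa. Shares of all probe sets under that t-test are not given here. Under every other alternative the counts of members called stayed within 1.5 times. With single arrays left out they were 99 to 104 falling in *FL*, 27 to 35 rising in *Fl*, 76 to 85 lower and 20 to 24 higher on average. With the replicate number as a block they were 102, 33, 80 and 20, and arrays of the same number did not deviate together (correlations of -0.203 to 0.085), so the block is no pairing. The averaged stage changes of the 5 transcripts given by identifier kept their direction and stayed past the threshold under each alternative run. All but the named one were chosen for the largest such changes among members called for them. Their stability is therefore no evidence about the other members. Brightness cannot be had from centred values, so a filter on dim probes was not run, and one on the SD over the arrays took its place.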
